A study of Rattus norvegicus with 6 samples.

Results

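Immediate early response genes are genes whose transcripts appear soon after a cell is stimulated or stressed, without new protein synthesis. The 10 genes of this class considered here, Fos, Fosb, Jun, Junb, Egr1, Ier2, Ier3, Nr4a1, Dusp1 and Btg2, were chosen by name, and they were compared between the kidneys of rats on a hyperammonemic and a normal diet as a check on tissue handling stress. Of these 10, 9 had a row in the deposited tables and all 9 passed the filter on low counts, among 17051 genes in the tables and 11553 genes tested. Fosb was not analysed here.

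Kidney RNA was sequenced from 6 male Sprague Dawley rats. The 3 rats of the AL group (rats 61, 71 and 88) ate standard powdered chow freely. The 3 rats of the HD group (rats 64, 67 and 69) ate the same chow mixed with amino acids in the proportions of hemoglobin, a diet that raises the ammonia load, and each diet lasted 7 days. Both groups then underwent the same surgery under isoflurane, with catheters in the left jugular vein and the left ureter, an infusion of para-amino hippuric acid and a collection of blood and urine, so the AL kidneys are not those of undisturbed animals. The age of the rats and the time from surgery to freezing are not given in the sources used here. For its PCR assays the study extracted RNA from a portion of a kidney with TRI reagent, and the sources do not say whether the libraries came from the same extract or which zones it held.

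In resting tissue the genes of this class are held at low levels but ready for transcription. Kinases of the ERK, p38 and JNK cascades switch them on through resident factors such as SRF with its ETS partners, which bind CArG boxes, and CREB, which binds the cAMP response element. Their products are transcription factors that drive a later wave of genes, or inhibitors that end the signal, and the transcripts are short-lived. In the kidney they are known to respond to ischemia, anesthesia, surgery and hormones within the time of an operation, which is why they are read as a sign of how a tissue was handled.

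The bases upstream of the annotated start are shown for 4 of the genes. Those of Ier2, Nr4a1 and Dusp1 hold the cAMP response element or its core, through which genes of this class are known to be induced. The bases shown for Junb hold neither. The sequences are the 150 bases before the RefSeq start on build GRCr8, on the gene's own strand, of Junb (chr19:40080976-40081125), Ier2 (chr19:40399223-40399372), Nr4a1 (chr7:134259988-134260137) and Dusp1 (chr10:17184703-17184852). Capitals mark, on either strand, the cAMP response element TGACGTCA, its core TGACG, the Egr site GCGNGGGCG and the TATA box TATAAA.
Junb: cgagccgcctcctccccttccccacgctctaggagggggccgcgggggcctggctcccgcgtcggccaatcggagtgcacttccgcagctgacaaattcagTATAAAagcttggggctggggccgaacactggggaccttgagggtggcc
Ier2: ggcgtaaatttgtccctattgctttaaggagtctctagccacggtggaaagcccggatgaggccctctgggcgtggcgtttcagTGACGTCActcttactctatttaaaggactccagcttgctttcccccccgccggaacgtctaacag
Nr4a1: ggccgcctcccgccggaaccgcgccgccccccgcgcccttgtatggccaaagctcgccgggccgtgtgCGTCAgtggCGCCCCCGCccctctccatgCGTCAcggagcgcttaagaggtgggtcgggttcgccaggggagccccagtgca
Dusp1: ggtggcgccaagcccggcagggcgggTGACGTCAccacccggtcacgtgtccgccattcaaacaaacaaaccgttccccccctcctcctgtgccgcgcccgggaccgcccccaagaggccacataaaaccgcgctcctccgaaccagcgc
The search covered 250 bases before the start, and 6 of the 9 genes had a promoter entry in the table of RefSeq sequences used here (these 4, Egr1 and Btg2). The full cAMP response element lay in 3 of the 6, at positions -66 to -59 of Ier2, -124 to -117 of Dusp1 and -201 to -194 of Btg2, against 1.59% of 33469 promoters of the same length. Its core lay in 6 of 6, against 18.2% of all promoters, and each full element holds the core on both strands. In Junb the core lay at positions -155 to -151, beyond the bases shown. The CArG box, bound by SRF, occurred in Egr1 alone among the 6, at positions -105 to -96 and -83 to -74, against 1.5% of all promoters. Egr sites lay in Nr4a1 (-73 to -65) and Btg2 (-166 to -158), against 4.29% of all promoters. The AP-1 site TGANTCA was found in 0 of 6, against 6.34%, the TATA box only in Junb (-49 to -44), against 12.9%, and the Sp1 site GGGCGG, which is not capitalized, in 3 of 6, against 30.5%. These matches describe the letters of the windows and say nothing of binding in these kidneys.

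Transcript levels were compared between genes in TPM, which is scaled to transcript length. Over the 6 rats Btg2 was at 140 ± 42.2 TPM (SD, n = 6), Jun at 116 ± 28.6, Dusp1 at 113 ± 46.7, Junb at 112 ± 29.7 and Ier3 at 106 ± 26.7. These 5 genes did not form a stable order, since the gene with the higher mean was higher in only 2 to 4 of the 6 rats for each neighboring pair. Ier2 followed at 58.4 ± 12.9 TPM and lay below Ier3 in 6 of 6 rats. Nr4a1 at 55.2 ± 47.8 and Egr1 at 40.5 ± 24.4 could not be told from their neighbors above them, each being lower in 4 of 6 rats. Fos was the least abundant at 14.0 ± 6.32 TPM and lay below Egr1 in 6 of 6 rats. In TPM, Jun was between 6.33 and 17.3 times as abundant as Fos, and the widest ratio was that of rat 71. The levels of the 9 genes summed to 728, 460 and 1038 TPM in AL rats 61, 71 and 88 and to 870, 676 and 755 TPM in HD rats 64, 67 and 69, so the AL group held both the lowest and the highest sum.

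The 9 genes did not move together with the diet. The log2 fold change (HD minus AL, on TMM-normalized counts) was above 0 for 7 genes and below 0 for 2, and its median was 0.13, against 0.01 over all tested genes. By edgeR's quasi-likelihood test with Benjamini-Hochberg adjustment 0 of the 9 passed an adjusted P of 0.05, as did 0 of 11553 genes (0%). At an unadjusted P below 0.05 there were 2 of the 9, Jun higher and Nr4a1 lower in HD, where 10.6% of all tested genes lay below that value, 4.66% of them higher in HD and 5.94% lower. With DESeq2 0 of the 9 passed the adjusted threshold, against 1.58% of all tested genes, and Jun and Nr4a1 had an unadjusted P below 0.05, against 11.5%. Every HD rat lay above every AL rat for 1 of the 9 (Jun), against 7.25% of all tested genes, and below for 1 of the 9 (Nr4a1), against 7.01%. Exact permutation tests over the 10 divisions of 6 rats into 3 and 3 cannot give a two-sided P below 0.1, and Jun and Nr4a1 reached that value.

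**Figure D1:**
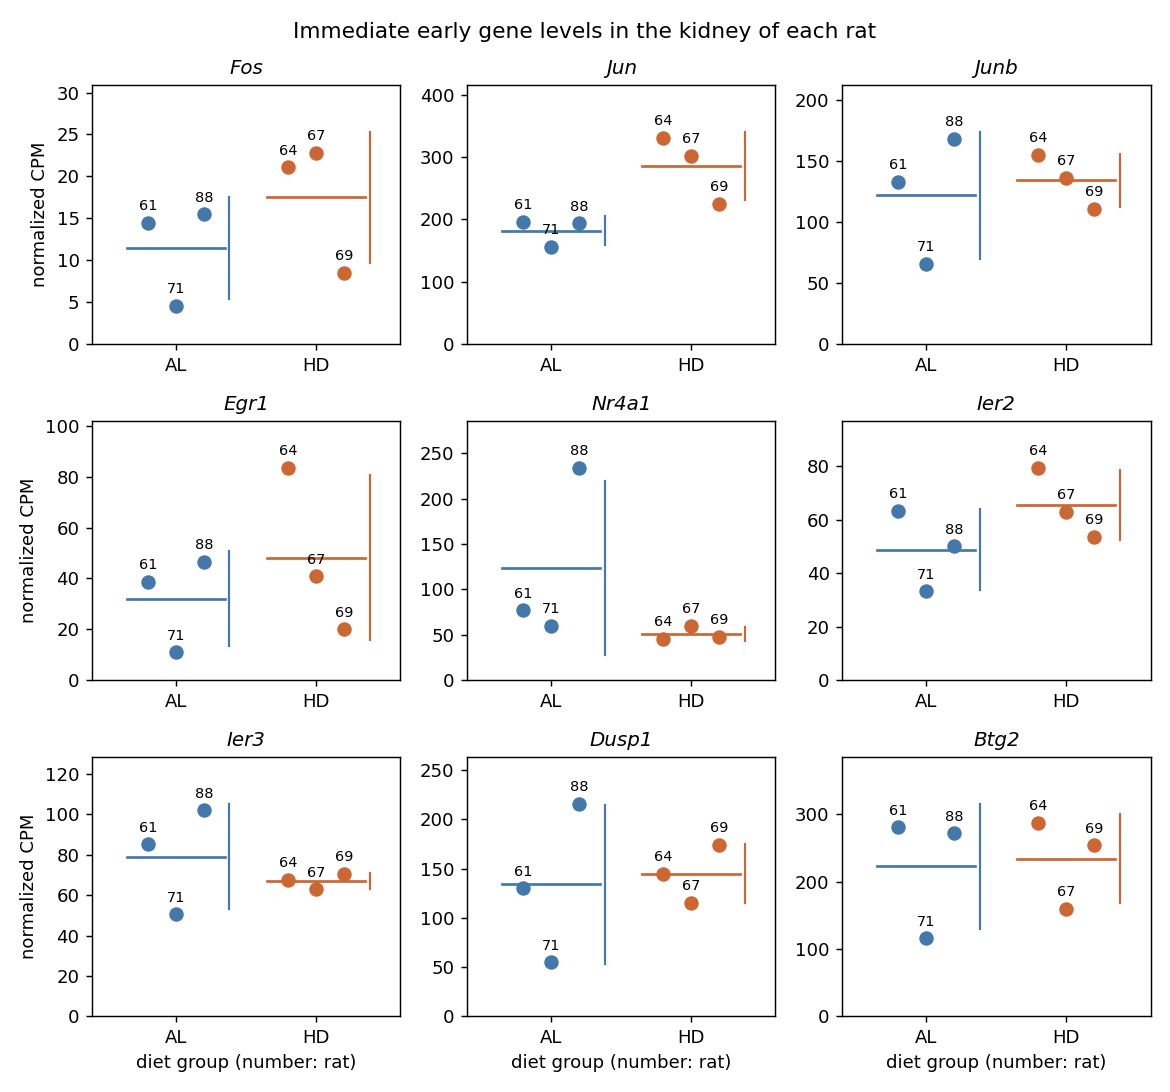
TMM-normalized CPM (vertical axes, read counts scaled to library size) of the 9 genes in each rat, by diet group; horizontal bars are group means, vertical bars the SD of 3 rats, and numbers name the rats. The 3 HD rats lie above the 3 AL rats for Jun alone, rat 71 is the lowest rat in 8 panels, and the AL mean of Nr4a1 is set by rat 88 at 234 CPM.

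Among the AP-1 subunits, Jun had the smallest P value. Levels of a single gene are given in CPM, its counts scaled to the library size with TMM factors. Jun encodes c-Jun, which pairs with Fos proteins in AP-1 and is activated by JNK (rn5, chromosome 5, 117957730 to 117960823, minus strand, a single exon). It was measured at 196, 156 and 194 CPM in AL rats 61, 71 and 88 and at 331, 302 and 225 CPM in HD rats 64, 67 and 69. All HD rats were above all AL rats, and the nearest pair, HD rat 69 and AL rat 61, was still apart. The means were 182 ± 22.8 and 286 ± 54.7 CPM (SD, n = 3), a log2 fold change of 0.65 (SE 0.17). The adjusted P was 0.398 by edgeR (unadjusted 0.00645) and 0.0506 by DESeq2. Leaving out any 1 rat kept the log2 fold change between 0.53 and 0.80.

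Fos, the inducible partner of Jun and the gene most often used to see recent stimulation (chromosome 6, 116249742 to 116252608, minus strand, 4 exons), was at 14.5, 4.54 and 15.5 CPM in the AL rats and at 21.1, 22.8 and 8.47 CPM in the HD rats, in the same rat order. The groups overlapped: HD rat 69 was below AL rats 61 and 88, and AL rat 71 was the lowest of all. The estimated counts behind these levels were 82 to 456, the fewest of the 9 genes. This gave a log2 fold change of 0.60 (SE 0.52, adjusted P = 0.748 by edgeR), which was between 0.21 and 0.94 when 1 rat was left out.

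Junb, which encodes an AP-1 subunit of lower activating strength than c-Jun (chromosome 19, 37068595 to 37070379, minus strand, a single exon), was at 133, 65.9 and 168 CPM in AL rats and at 155, 136 and 111 CPM in HD rats. The HD rats lay within the range of the AL rats. Its log2 fold change of 0.13 (SE 0.32, adjusted P = 0.933 by edgeR) turned to -0.17 without rat 71 and was 0.44 without rat 88.

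Egr1 encodes a zinc finger factor that binds GC-rich sites and carries CArG boxes in its own promoter (chromosome 18, 27369518 to 27371716, plus strand, 2 exons). Its levels were 38.7, 11 and 46.6 CPM in AL rats and 83.5, 40.8 and 20.0 CPM in HD rats. Rat 64 was the highest and rat 71 the lowest, and within each group the highest rat was 4.23 times (AL) and 4.17 times (HD) the lowest. Between the groups the log2 fold change was 0.58 (SE 0.62, adjusted P = 0.81 by edgeR), and it was -0.08 without HD rat 64 and 0.97 without AL rat 88.

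Nr4a1 encodes an orphan nuclear receptor, also known as Nur77 (chromosome 7, 140713169 to 140721072, plus strand, 7 exons). It was at 77.1, 60.0 and 234 CPM in AL rats and at 45.6, 59.9 and 48.0 CPM in HD rats. The AL rats were above the HD rats, but rat 71 and rat 67 were nearly equal and rat 88 stood apart. The means were 124 ± 95.9 CPM in AL and 51.2 ± 7.65 CPM in HD (SD, n = 3). The log2 fold change was -1.27 (SE 0.48, unadjusted P = 0.0318, adjusted P = 0.426 by edgeR; adjusted P = 0.108 by DESeq2). Without rat 88 it was -0.41 (unadjusted P = 0.0577 by edgeR), so the size of the difference rested on that rat.

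The related receptors showed the same rat at the top. Nr4a2 (Nurr1) was at 22.1, 13.4 and 53.8 CPM in AL rats and at 11.5, 15.3 and 15.3 CPM in HD rats, with a log2 fold change of -1.08 (SE 0.47, adjusted P = 0.473 by edgeR) and of -0.32 without rat 88. Nr4a3 (Nor1) was at 13.1, 6.31 and 21.2 CPM in AL rats and at 5.77, 3.99 and 9.52 CPM in HD rats, with a log2 fold change of -1.06 (SE 0.48, adjusted P = 0.493 by edgeR) and of -0.57 without rat 88. In both genes the groups overlapped, and rat 88 was the highest of the 6 rats.

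Ier2 and Ier3 are small early response genes of different families. Ier2, which encodes a nuclear protein (chromosome 19, 36750511 to 36752033, minus strand, a single exon), was at 63.3, 33.3 and 50.1 CPM in AL rats and at 79.5, 62.9 and 53.7 CPM in HD rats. HD rats 67 and 69 were below AL rat 61, so the groups overlapped by that rat alone. The log2 fold change was 0.42 (SE 0.25, adjusted P = 0.612 by edgeR). Without rat 61 it was 0.65 (unadjusted P = 0.032 by edgeR).

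Ier3, also known as IEX-1, takes part in the control of cell survival and of ERK activity (chromosome 20, 5535616 to 5536820, minus strand, 2 exons). It was at 85.2, 50.5 and 102 CPM in AL rats and at 67.5, 62.9 and 70.6 CPM in HD rats, so the HD rats lay close together inside the range of the AL rats. For Ier3 the log2 fold change was -0.24 (SE 0.24, adjusted P = 0.789 by edgeR), and it was -0.01 without rat 88 and -0.48 without rat 71.

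The feedback and growth arrest genes had fold changes close to 0. Dusp1, the phosphatase that inactivates p38, JNK and ERK (chromosome 10, 16867381 to 16870164, plus strand, 4 exons), was at 130, 54.8 and 216 CPM in AL rats and at 145, 115 and 174 CPM in HD rats. The HD rats again lay between the extremes of the AL rats. The log2 fold change was 0.12 (SE 0.43, adjusted P = 0.962 by edgeR), and it was -0.26 without rat 71 and 0.66 without rat 88.

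Btg2, an antiproliferative gene that p53 and growth factors induce (chromosome 13, 55966299 to 55970058, minus strand, 2 exons), was at 281, 116 and 272 CPM in AL rats and at 287, 160 and 254 CPM in HD rats. One rat of each group, rat 71 and rat 67, was well below the rest. For Btg2 the log2 fold change was 0.07 (SE 0.36, adjusted P = 0.974 by edgeR), and it lay between -0.24 and 0.28 when 1 rat was left out. Each of the 9 genes is represented by 1 transcript in the tables, and none overlapped another gene of the annotation.

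The genes varied more between rats of the same diet than most genes did. The SD of log2 CPM within groups had a median of 0.60 over the 9 genes, against 0.22 over all tested genes. It was 1.06 for Egr1 (98.6th percentile of all tested genes), 0.86 for Fos (97.0th), 0.75 for Nr4a1 (95.0th), 0.74 for Dusp1 (94.6th), 0.60 for Btg2 (90.8th) and 0.52 for Junb (87.1th). Ier2 (0.38, 76.7th) and Ier3 (0.37, 75.8th) varied less, and Jun least (0.24, 56.6th), which is the gene with the smallest SE of its fold change. The spread lay mostly in the AL group. Its SD was larger in AL than in HD for 8 of the 9 genes (88.9%), Jun being the exception, against 50.8% of all tested genes, and the median SD was 0.72 in AL and 0.29 in HD, against 0.20 in both groups over all tested genes.

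**Figure D2:**
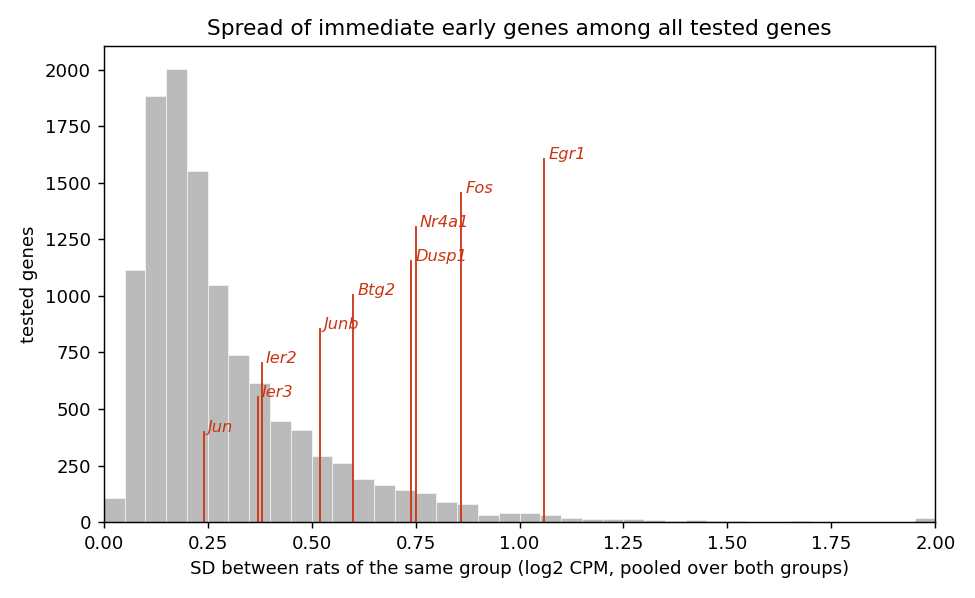
Histogram of the SD of log2 CPM between rats of the same group over all tested genes (horizontal axis, log2 units; vertical axis, number of genes), with lines at the 9 genes; line heights only separate the names, and the last bin also holds the 18 genes above 2. Egr1 lies farthest to the right at 1.06 and Jun farthest to the left at 0.24, where the median of all tested genes is 0.22.

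Rat 71 of the AL group stood at the low end. It was the lowest of the 6 rats in 8 of the 9 genes (88.9%) and the lowest AL rat in all 9, where 18.6% of all tested genes were lowest in rat 71 and 34.4% were lowest in it among the AL rats. The exception over the 6 rats was Nr4a1, lowest in rat 64. The same 8 genes were lowest in rat 71 by CPM without a composition factor and by TPM. Rat 88 was the highest rat in 4 genes (Junb, Nr4a1, Ier3 and Dusp1), rat 64 in 4 (Jun, Egr1, Ier2 and Btg2) and rat 67 in 1 (Fos). Of all tested genes 14.2% were highest in rat 88, 18.8% in rat 64 and 14% in rat 67. Btg2 was highest in rat 88 by both of the other scales, CPM without a composition factor and TPM. In other gene lists read further below, rat 71 was lowest in 6 of 12 glucocorticoid response genes (50%), 5 of 11 proximal tubule markers (45.5%) and 5 of 16 heat shock genes (31.2%). The share was 8.33% to 25% in the signaling, thick limb, collecting duct and smooth muscle lists. It was 0 in the podocyte, endothelial and leukocyte markers. The mean of the 9 genes' log2 levels, each taken relative to that gene's average level in all 6, was 0.14, -0.89 and 0.46 in AL rats 61, 71 and 88 and 0.36, 0.09 and -0.16 in HD rats 64, 67 and 69. Without rat 71 the median log2 fold change of the 9 genes was -0.17, and without rat 88 it was 0.45, against 0.13 with all rats.

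**Figure D3:**
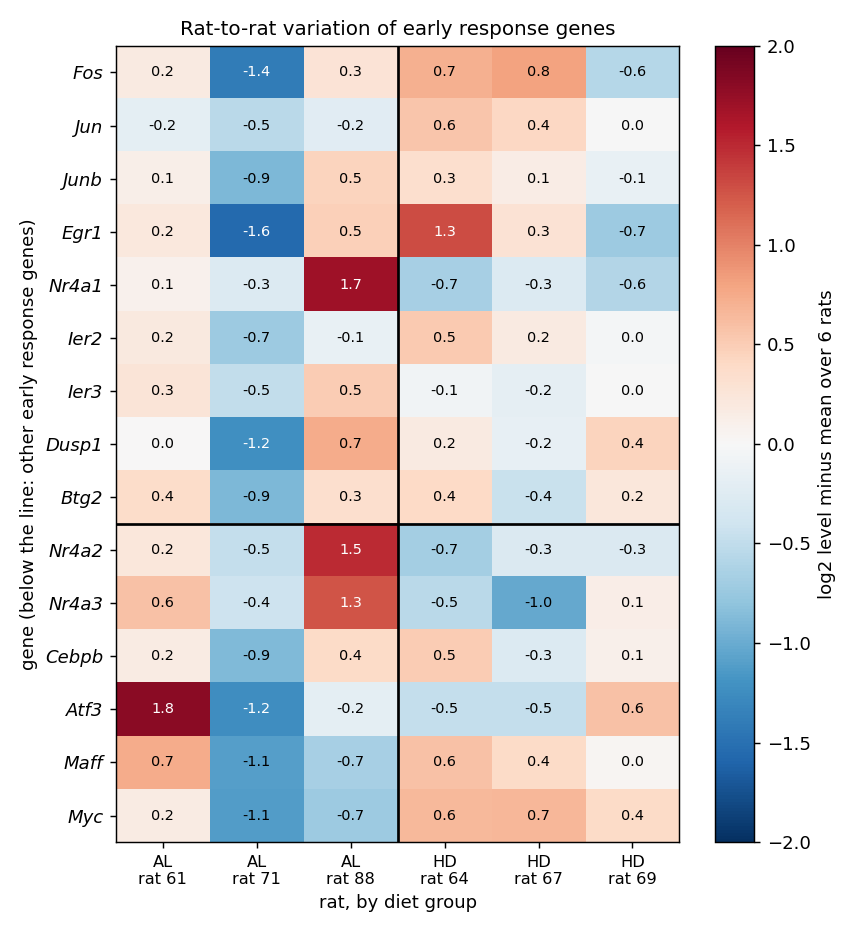
Log2 CPM of each gene in each rat relative to the gene's average in all 6 (color and printed values, log2 units), with the 9 genes above the horizontal line and 6 other early response genes below it. The column of rat 71 is below 0 in all 9 genes, and Nr4a1, Nr4a2 and Nr4a3 have their highest value in rat 88.

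Rat 71 was neither the shallowest nor the deepest library. Total estimated counts ranged from 12499945 (rat 64) to 30466461 (rat 69), and rat 71 had 16455405. Its TMM composition factor of 1.1 was the highest, with 0.943 to 1.04 in the others. RNA integrity values are not given in the sources used here. Markers of other cell types also differed between rats. The summed level of 15 leukocyte markers (such as Ptprc and Lyz2) was highest in rat 71, at 1188 TPM. It was 255 to 762 TPM in the others. That of 12 endothelial markers was also highest in rat 71, at 506 TPM, with 122 to 478 TPM in the others. Taken singly in CPM, 13 of 13 tested leukocyte markers were highest in rat 71, but only 3 of 12 endothelial ones, against 18% of all tested genes. Rat 69 was highest in 5 of the endothelial markers and rat 88 in 3, among them Pecam1 (83.7 CPM, 69.7 in rat 71). The part of these differences in the low early gene levels of rat 71 was not tested, and in RNA of whole tissue fewer cells of a type and less RNA per cell cannot be told apart.

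Other genes of the class were taken from 3 lists of early response genes, 82 genes in all, of which 71 were tested. Of these 71, 34 were higher and 37 lower in HD, and the median log2 fold change was -0.02. By edgeR 0 passed an adjusted P of 0.05, while 7 higher (9.86%) and 4 lower (5.63%) had an unadjusted P below 0.05, against 4.66% and 5.94% of all tested genes. DESeq2 called 2 of the 71 (2.82%), against 1.58% of all tested genes. At an unadjusted P below 0.05 by DESeq2 there were 16 of the 71, against 1325 of 11553 genes (11.5%). Rat 71 was the lowest rat in 27 of the 71 (38%), a share between those of the 9 genes and of all tested genes, and the SD was larger in AL in 48 of them (67.6%).

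Of the AP-1 partners, other members of the Fos, Jun, Atf and Maf families, 10 of 13 were tested, 5 were higher and 5 lower in HD, and the median log2 fold change was -0.00. Jund, the AP-1 subunit expressed steadily in many resting cells, had a log2 fold change of 0.50 (SE 0.18, adjusted P = 0.419 by edgeR). Its levels were 173, 126 and 133 CPM in AL rats and 192, 171 and 247 CPM in HD rats, with HD rat 67 just below AL rat 61. Atf3, a stress-induced repressor, was at 91.9 CPM in AL rat 61 and at 10.7 to 39.2 CPM in the other rats, and its log2 fold change of -0.70 (SE 0.73) turned sign when 1 rat was left out, with a range of -1.16 to 0.62. Maff, a small Maf protein, had a log2 fold change of 0.48 (SE 0.45). Fosl1, Batf and Batf3 did not reach the count minimum of 30 in any rat.

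Among other early response transcription factors, 20 of 25 were tested, 9 were higher and 11 lower, and the median was -0.07. Myc, the growth-promoting factor, had the largest positive difference of the list. It was at 44.1, 17.9 and 23.5 CPM in AL rats and at 62.0, 62.4 and 51.2 CPM in HD rats, all HD rats above all AL rats, with a log2 fold change of 1.04 (SE 0.31, unadjusted P = 0.011, adjusted P = 0.402 by edgeR; adjusted P = 0.0618 by DESeq2). Id3, an inhibitor of helix-loop-helix factors, was at 48.3, 40.7 and 76.2 CPM in AL rats and at 22.3, 37.3 and 40.6 CPM in HD rats, all HD rats below all AL rats by a small margin (log2 fold change -0.71, SE 0.29, adjusted P = 0.458 by edgeR). Relatives of Egr1 were scarce among those under the minimum: Egr3 had at most 5 counts in a rat and Egr4 had 0 in every rat.

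Among other early response effectors, 41 of 44 were tested, 20 were higher and 21 lower, and the median was -0.02. The 2 genes that DESeq2 called both belong here and encode secreted proteins. Gdf15, a stress-induced hormone of the TGF-beta family, was at 51.0, 39.2 and 27.2 CPM in AL rats and at 139, 95.5 and 115 CPM in HD rats. Every HD rat was well above every AL rat (log2 fold change 1.57, SE 0.24; adjusted P = 0.269 by edgeR and 9.16e-07 by DESeq2), and the difference stayed between 1.38 and 1.81 when 1 rat was left out. Areg, a ligand of the EGF receptor, was at 4.05, 2.22 and 3.04 CPM in AL rats and at 25.6, 8.14 and 11.6 CPM in HD rats. Its groups did not overlap either (log2 fold change 2.28, SE 0.47; adjusted P = 0.352 by edgeR and 4.96e-04 by DESeq2), with a range of 1.68 to 2.58 when 1 rat was left out.

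Higher in HD at an unadjusted P below 0.05 by edgeR were also Dusp8, a phosphatase of JNK and p38 (log2 fold change 0.98), the growth arrest gene Gadd45a (0.66) and Phlda1 (0.40). Lower in HD at that level were Btg1, the relative of Btg2 (-0.50), Arc (-0.93) and the GTPase gene Gem (-0.92). The adjusted P of these 6 genes lay between 0.398 and 0.467 by edgeR. Ptgs2, which encodes cyclooxygenase-2, was at 7.61 CPM in AL rat 88 and at 0.25 to 1.27 CPM in the other rats. Its log2 fold change was -2.02 (SE 1.09, adjusted P = 0.564 by edgeR). Ptgs2 was measured on few counts, 115 in rat 88 and 5 to 23 in the other rats. Only rat 88 reached the count minimum for testing. The top place of rat 88 for Ptgs2 therefore follows from the filter and is not a further instance of high levels in that rat.

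**Figure D4:**
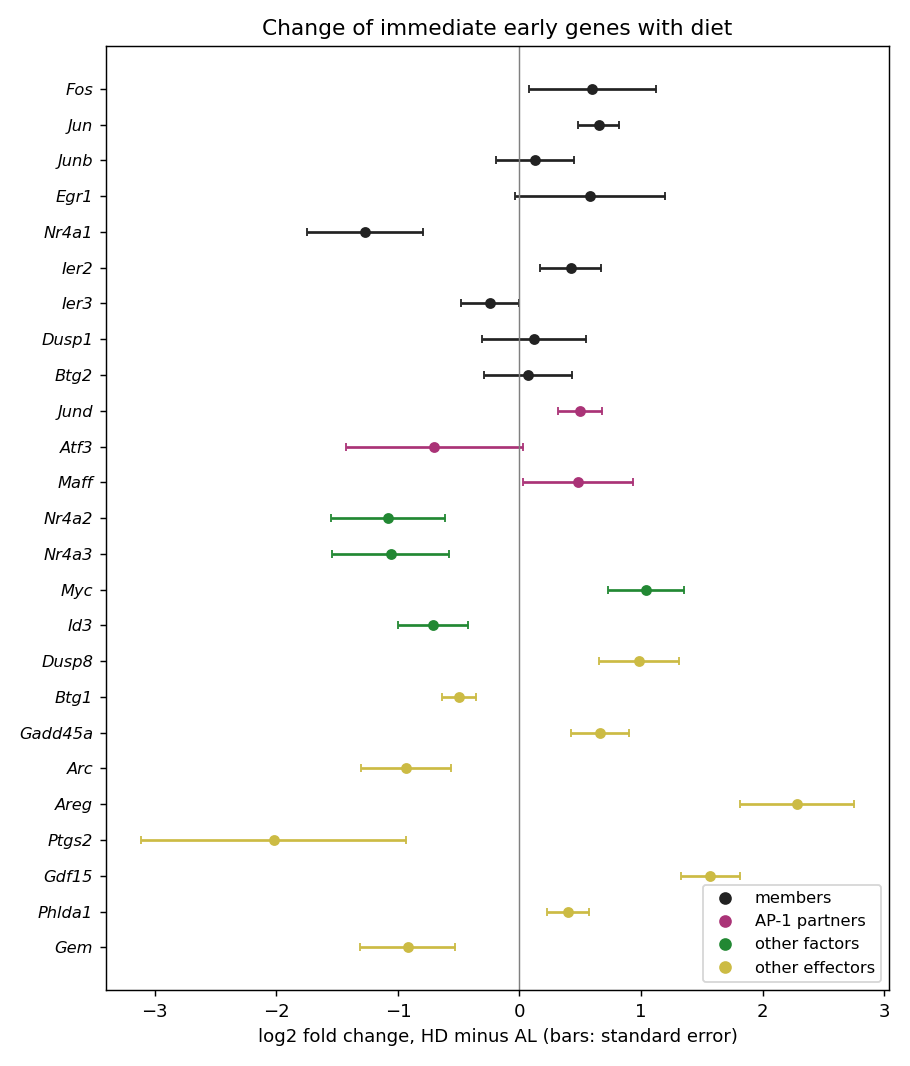
Log2 fold change, HD minus AL (horizontal axis), of the 9 genes (marked as members) and of the named genes of the 3 lists of other early response genes, with bars of 1 SE from edgeR. Jun lies above 0 and Nr4a1, Nr4a2 and Nr4a3 below it, and Areg (2.28) and Gdf15 (1.57) have the largest positive values.

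Fold changes of the genes that carry the signal to this class centered on 0. Of 26 kinases and resident factors of the ERK, p38, JNK and SRF pathways, 24 were tested, 14 were higher and 10 lower in HD, and the median log2 fold change was 0.01. Their median SD within groups was 0.13, below the 0.22 of all tested genes and the 0.60 of the 9 early genes. The kinase gene Rps6ka5 (-0.53, SE 0.24) and Elk3, an ETS partner of SRF (-0.85, SE 0.42), had the largest negative differences, with adjusted P of 0.491 and 0.534.

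Another pair of stress programs was read beside the early genes. All 16 heat shock genes of the list were tested, and 8 were higher and 8 lower in HD, with a median of -0.01. The small heat shock protein gene Hspb8 (0.86, SE 0.25) and the co-chaperone gene Bag3 (0.36, SE 0.15) were higher at an unadjusted P below 0.05, with adjusted P of 0.399 and 0.455 by edgeR. Hspa1b, an inducible HSP70, was at 45.9, 18.3 and 34.4 CPM in AL rats and at 12.4, 18.4 and 25.0 CPM in HD rats, overlapping groups with a log2 fold change of -0.81 (SE 0.37, adjusted P = 0.491 by edgeR). Hspb1 had a log2 fold change of -0.52 (SE 0.30).

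Of 12 genes known to respond to glucocorticoid, all were tested, 4 were higher and 8 lower in HD, and the median was -0.17. Hsd11b2, the enzyme that inactivates corticosterone in the collecting duct, had every HD rat (440, 292 and 401 CPM) above every AL rat (231, 253 and 240 CPM), a log2 fold change of 0.64 (SE 0.16; adjusted P = 0.39 by edgeR and 0.0359 by DESeq2). Klf9 was also higher (0.66, SE 0.26) and Tsc22d3, which encodes GILZ, lower (-0.68, SE 0.26) at an unadjusted P below 0.05, with adjusted P of 0.441 and 0.44 by edgeR. Zbtb16 was at 2.14, 1.88 and 12 CPM in AL rats and at 1.02, 0.25 and 2.24 CPM in HD rats, with rat 88 highest. Its log2 fold change was -2.14 (SE 0.94), and -0.74 at the nearest to 0 when 1 rat was left out. Zbtb16 was measured on few counts, from 5 in rat 67 to 182 in rat 88, so these values are less certain. The metallothionein gene Mt1a varied from 98.2 CPM in rat 71 to 875 CPM in rat 64 (log2 fold change 0.86, SE 0.75).

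The genes whose pattern over the 6 rats was nearest to the mean pattern of the 9 genes were found by the root mean square distance of their centered log2 levels, over 6 rats and 11544 other genes, whose median distance was 0.49. They were Pex11a (0.14), LOC500948 (0.15), Zfp354a (0.18), Cklf (0.19), Cebpb (0.20), Prcp (0.20), Ppcs (0.21), Arl4a (0.21), Cnnm1 (0.22) and RGD621098 (0.22). LOC500948 (14 to 44 counts per rat) and Cklf (29 to 60) were measured on few counts, so their patterns are less certain. Pex11a, a peroxisome gene, was at 84.2, 41.4 and 109 CPM in AL rats and at 103, 79.2 and 54.0 CPM in HD rats, with rat 71 lowest and rat 88 highest. Cebpb, which encodes the transcription factor C/EBP beta, is itself on the list of early response factors, and it was at 78.0, 37.4 and 90.9 CPM in AL rats and at 98.7, 57.2 and 74.7 CPM in HD rats. Within the 9 genes, Junb was the nearest to the mean of the others (0.03) and Nr4a1 the farthest (0.83).

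The tissue was checked against markers of the cell types of the kidney. Proximal tubule markers were the most abundant, with summed levels of 9238 to 10909 TPM in AL and 11808 to 14565 TPM in HD. Of these markers 9 of 11 tested were higher in HD (median log2 fold change 0.41), as were 10 of 12 podocyte markers (0.78; summed 48.9 to 128 TPM in AL and 160 to 328 TPM in HD). Thick limb and distal tubule markers had 3 of 8 higher (-0.09; 3723 to 4390 and 2957 to 4644 TPM) and collecting duct and inner medulla markers 4 of 12 (-0.48; 1533 to 2261 and 1324 to 1639 TPM). Endothelial markers had 2 of 12 higher (-0.31; 197 to 506 and 122 to 383 TPM), smooth muscle and mesangial markers 5 of 11 (-0.32; 130 to 365 and 129 to 389 TPM) and leukocyte markers 0 of 13 (-1.22; 455 to 1188 and 255 to 558 TPM). The distal tubule marker Pvalb was at or near 0 in every rat, with at most 2 counts. The part of these differences in the values of Jun, Nr4a1, Gdf15 and Areg was not tested.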

How the data were processed

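Kidney RNA of 6 rats, 3 on each diet, was sequenced as 1 poly(A)-selected library per rat with a kit that does not mark strand. The authors assigned reads to transcripts of the UCSC rn5 gene definitions with RSEM 1.1.15 at default parameters, per the labels and the methods, and deposited expected counts, which are not normalized, and TPM, which are scaled to transcript length and library size. Other columns were not used.

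Expected counts were summed per gene symbol and rounded, and a gene was tested when any rat had a count of 30 or more. HD was compared with AL by edgeR's quasi-likelihood test (edgeR 4.0.16, R 4.3.3, TMM normalization, Benjamini-Hochberg adjustment over all tested genes, threshold 0.05). The SE was the absolute log2 fold change divided by the square root of F. CPM are TMM-normalized, and log2 levels and exact permutation tests used CPM plus 0.5. The common biological coefficient of variation was 0.242. DESeq2 1.42.0, limma 3.58.1 on log2 of TPM plus 0.5, other size factors and filters and each rat left out were alternatives. The rats carry no labels of separate batches. P values by edgeR set the group difference against the spread between these 6 rats, estimated in part over all tested genes. Total counts of 12499945 to 30466461 set the counting precision, which among the 9 early genes is coarsest for Fos.

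The 10 genes and all lists were chosen with earlier results of these data known. Genes named are the 10, those of the 3 early response lists, the ERK, p38, JNK and SRF list, the heat shock list and the glucocorticoid list at an unadjusted P below 0.05 or among the 3 largest absolute log2 fold changes of their list, the 10 genes nearest in pattern, and up to 3 abundant genes of each marker list. Fosl1, Batf, Batf3, Egr3, Egr4, Ptprc and Pvalb were named after their values were seen. A few genes that this rule covers are not reported here. RefSeq sequences of build GRCr8 were matched by symbol, and no coordinate was carried between builds.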

Additional observations from a re-analysis of the deposited data

How the results depend on the processing

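No paired analysis was possible because the groups hold different animals and no label links a rat of one group to a rat of the other. The 9 fold changes were recomputed under 13 alternatives, 117 values in all, and 111 kept their direction and their side of the threshold. Among them was every value under the 7 alternatives that keep all 6 rats. Those 7 reuse the same libraries, and in the main fit 0 of 11553 genes passed the threshold, so keeping its side is a weak check. The 6 values that reversed all came from leaving out 1 rat, where the ranges were -0.17 to 0.44 for Junb, -0.26 to 0.66 for Dusp1, -0.24 to 0.28 for Btg2 and -0.08 to 0.97 for Egr1. Junb, Dusp1 and Btg2 turned negative without rat 71, Egr1 and Btg2 (-0.11) without rat 64, and Dusp1 (-0.03) without rat 69. The number of genes at an adjusted P of 0.05 was 0 by edgeR (1224 at an unadjusted P below 0.05), 182 by DESeq2 (1325 unadjusted) and 2 without a filter on low counts (14403 genes tested). Leaving out 1 rat gave 0 to 4 genes (2 without rat 61, 4 without rat 64 and 2 without rat 67), none of them an early response gene. The cause of these differences was not tested. Of the 9 genes, 2 had an unadjusted P below 0.05 by edgeR (10.6% of all tested genes) and 1 (Jun) by limma on TPM (8.78%). Leaving out 1 rat gave 1 to 3 such genes: Jun, Ier2 and Nr4a1 without rat 61 (14.9% of all tested genes), Jun, Ier3 and Nr4a1 without rat 71 (7.67%), and Jun alone without rat 88 (5.26%), 64 (5.53%), 67 (8.31%) or 69 (15.6%). The median log2 fold change of the 9 genes ranged from -0.17 to 0.45 when 1 rat was left out. Library size alone moved the median of all genes from 0.01 to -0.07 and that of the 9 genes to 0.06, and changed no direction among the 9. Among the 9 genes Fos, with 82 to 456 counts, had the least depth.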
